A study of Mus musculus with 6 samples.

Results

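The clustered histone genes are the genes of the Hist1, Hist2, Hist3 and Hist4 loci of the mouse, which encode the linker histone H1 and the core histones H2a, H2b, H3 and H4. They were chosen by symbol, as every gene whose symbol begins with Hist, a cluster number from 1 to 4 and h, which gave 67 of the 32285 genes in the table. They fall into 6 H1, 18 H2a, 18 H2b, 12 H3 and 13 H4 genes. On GRCm38, 54 of them lie in the Hist1 cluster on chromosome 13, 10 in the Hist2 cluster on chromosome 3, 2 in the Hist3 cluster on chromosome 11 and 1, Hist4h4, on chromosome 6. Their RNA was measured by bulk RNA-seq in CD4+CD25+ Tregs sorted from the spleens of C57BL/6 mice, with 3 libraries in each of 2 groups. The KO group came from ERCre+Zfp335f/f mice, which carry a Cre recombinase that tamoxifen activates through an estrogen receptor domain and that then removes the floxed Zfp335 gene. ER-Cre is not restricted to Tregs, so the gene can be lost in other cells of the same animals. Per the study's methods the mice were 6 weeks old, received 3 injections of tamoxifen and were killed on day 7. In the labels the WT animals are wild-type littermates, whereas the study's methods call them tamoxifen-treated ERCre mice. No source states that each library came from its own animal, so the p-values measure only the spread between these libraries. The comparison of KO with WT asks which transcripts differ in Tregs after loss of Zfp335, a zinc finger transcription factor.

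Most clustered histone genes are switched on as cells enter S phase, when new DNA has to be wrapped around histone octamers made of H2a, H2b, H3 and H4, and H1 binds the DNA between octamers. Their mRNAs are unusual in that they mostly carry no poly(A) tail and end just after a short stem-loop, which is bound by SLBP. A few of these genes also give longer, polyadenylated transcripts, which cells can make outside S phase. Libraries that are made from polyadenylated RNA therefore miss most of the stem-loop-ended histone mRNA. The labels name a TruSeq RNA kit and 200 ng of total RNA and do not state whether poly(A) RNA was selected.

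A match to the stem-loop was found in the annotated transcripts of 46 of the 67 genes, and the loops are shown here because they divide the family. The same 16 bases were found in 26 genes of the H1, H2a, H2b and H3 classes. Another 7 genes, all of the H4 class, carried a form in which both arms of the stem differ, and 6 genes of the H1, H2b and H3 classes carried a form that differs in the loop. Genes among the highest counted of each form read as follows on the RNA's own strand, with the stem-loop in capitals.
Hist1h1c: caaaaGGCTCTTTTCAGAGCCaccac
Hist3h2a: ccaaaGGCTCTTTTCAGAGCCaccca
Hist3h2ba: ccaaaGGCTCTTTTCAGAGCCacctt
Hist1h3a: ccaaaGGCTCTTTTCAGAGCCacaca
Hist1h3c: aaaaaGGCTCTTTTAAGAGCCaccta
Hist1h4n: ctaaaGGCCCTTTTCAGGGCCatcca
Hist1h4i: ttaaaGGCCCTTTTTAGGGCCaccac
Hist1h4i has a form of its own that it shares with Hist2h4 alone, and the remaining 5 genes with a match are spread over 4 further forms. The annotated transcript ended within 100 bases of the stem-loop in 23 genes and ran more than 100 bases past it in the other 23.

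The clustered histone genes were counted at low levels in these Tregs. Library totals were between 133283969 and 209041812 counts, and the 67 genes together took 11240 to 19026 of them, which is 0.00841% to 0.00910% of a library. Counts are given as CPM, the count relative to the library size after TMM scaling, which is edgeR's correction for library composition. Of the 67 genes, 59 passed edgeR's filter on low counts and were tested. The filter was not passed by Hist1h2af, Hist1h2ba, Hist2h2aa1 and Hist2h2aa2, which had counts in at least 1 library. The other 4, Hist1h1t, Hist1h2aa, Hist2h2bb and Hist2h3b, had 0 counts in all 6 libraries, and the limit that a count of 0 allows is 3 counts, or 0.0145 to 0.0223 CPM by library, for counting error only. Hist1h1t is the testis H1 and Hist1h2aa and Hist1h2ba are the testis H2a and H2b, and Hist1h2ba was counted only in WT replicate 3, at 0.0446 CPM.

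Per kb of exon, the median clustered histone gene was at 0.598 CPM, with a range from 0 to 10.95 CPM per kb for Hist1h1c. By comparison, the median was 7.13 CPM per kb over 26 S phase genes and 43.8 CPM per kb over 11 histone variant genes outside the clusters, most of which give polyadenylated mRNAs. The variant H3f3b, which encodes the H3.3 that replaces H3 outside S phase, was at 264.3 CPM per kb, and H2afz, which encodes H2A.Z, at 203.8 CPM per kb. Tregs were recognisable in all 6 libraries by the 7 Treg markers used, whose median was 151.5 CPM per kb and whose summed level was 3575 to 3724 CPM.

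A few genes held most of the histone counts. Hist1h1c had 19.5% and Hist3h2a 15.9% of the summed CPM of the 67 genes, and the 12 highest genes together had 68.8%. Of these 12, 6 have a polyadenylation signal in the last 50 bases of their annotated transcript, and these 6 held 51.5% of the summed CPM. Over the whole family, 17 genes have such a signal and held 58.5% of the summed CPM. Transcripts that run more than 100 bases past the stem-loop held 66.4%, those that end within 100 bases of it held 18.5%, and genes with no stem-loop match held 15.0%. Longer transcripts yield more counts, and per kb the medians of the first 2 sets lay close together, at 0.811 CPM per kb for the extended transcripts and 0.848 CPM per kb for those that end at the stem-loop. Which 3′ ends were present in these libraries cannot be read from counts per gene.

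**Figure D1:**
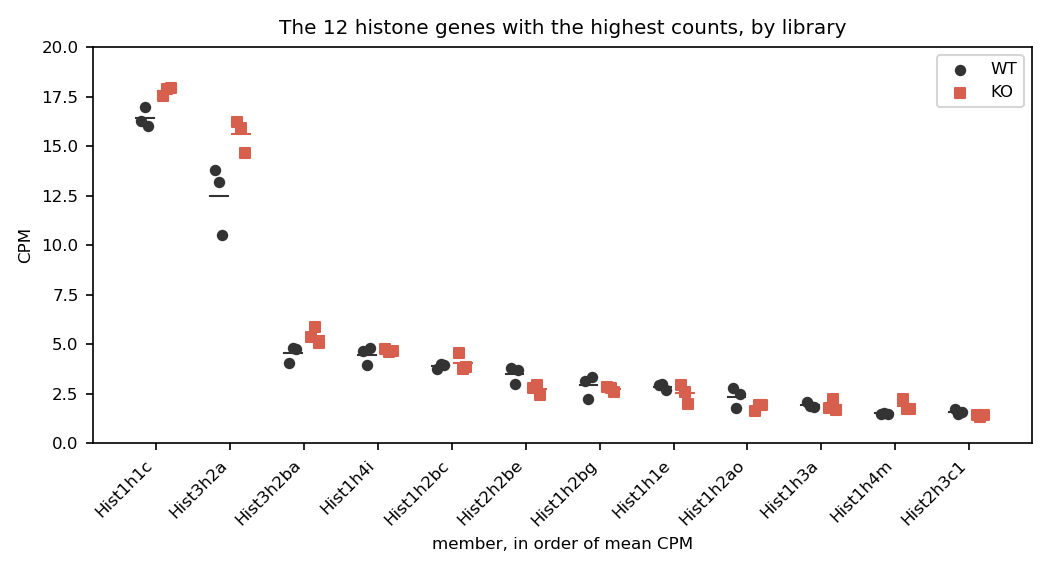
CPM (vertical axis) in each library for the 12 clustered histone genes with the highest mean CPM, in that order, with WT as circles, KO as squares and a bar at each group mean. Hist1h1c and Hist3h2a stand well above the rest, and KO lies above WT in every library for Hist1h1c, Hist3h2a, Hist3h2ba and Hist1h4m and below it for Hist2h2be and Hist2h3c1.

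Between KO and WT Tregs, 1 of the 59 tested genes changed at an adjusted p under 0.05 (edgeR's quasi-likelihood test, Benjamini-Hochberg adjustment over all 17307 genes tested). This gene, Hist3h2a, was higher in KO, and none was lower. Of all genes tested, 24.1% were called, 12.0% of them higher and 12.1% lower, each as a share of the 17307. At an unadjusted p under 0.05, 4 histone genes were higher and 3 were lower in KO, 7 of 59 in all, whereas 34.7% of all genes tested were below this p. Most of these genes had low counts: 39 of the 59 genes had a mean CPM under 1, where 8.60% of all genes were called and 0 of the 39 were, and 20 had a mean CPM from 1 to 20, where 26.9% of all genes were called and 1 of the 20 was. The median standard error (SE) of a log2 fold change was 0.296 for the 39 genes and 0.153 for the 20, against 0.461 and 0.0931 for all genes at those levels. The 95% interval of the fold change lay within 2-fold in either direction for 42 of the 59 genes and within 1.5-fold for 16, and the intervals of the other 43 reached beyond 1.5-fold. The groups did not overlap for 14 genes, with KO above WT in 6 and below it in 8, and for 38.3% of all genes tested. With the study's cutoffs, at least 1.5-fold with P under 0.05 and adjusted P under 0.1, none was higher and 2, Hist1h2ak and Hist1h3f, were lower, where 6.95% of all genes were called in either direction.

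**Figure D2:**
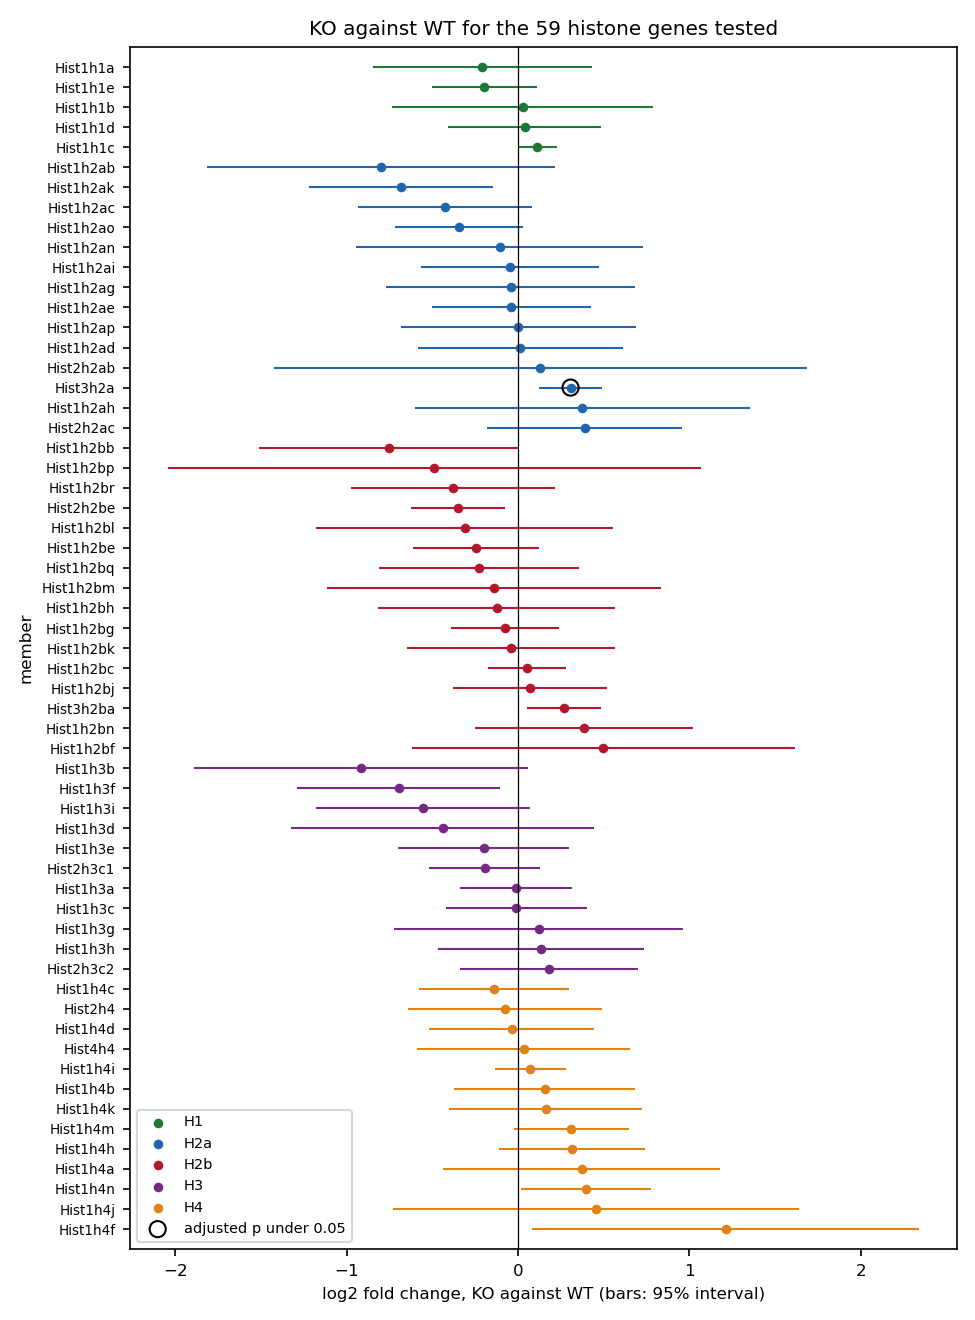
Log2 fold change of KO against WT (horizontal axis) for each of the 59 tested clustered histone genes, ordered by class and then by value, with bars for the 95% interval and a ring around a gene with an adjusted p under 0.05. The ring marks Hist3h2a alone, and most intervals cross 0.

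The targeted gene was strongly reduced in the KO libraries. Zfp335 was at 124.4, 120.7 and 115.2 CPM in WT and at 15.0, 14.3 and 15.1 CPM in KO. Other RNAs differed between the groups beside it. Of the 7 Treg markers, 2 (Ctla4 and Tnfrsf18) were called higher in KO and 2 (Il2ra and Foxp3) lower. The summed level of the 7 was 3575 to 3622 CPM in WT and 3669 to 3724 CPM in KO. Markers of other blood cells differed by cell type. All 7 neutrophil genes were called lower in KO, with their summed level at 19.4 to 26.3 CPM in WT and 1.27 to 2.001 CPM in KO. All 5 B cell genes were called lower, with summed levels of 45.4 to 49.5 CPM in WT and 21.1 to 23.0 CPM in KO, and 6 of 9 genes of red cell precursors were lower and 1, Tfrc, was higher. Of 5 genes of macrophages and dendritic cells 2 were lower and 0 higher, with summed levels of 39.4 to 43.0 CPM in WT and 26.3 to 29.0 CPM in KO. Of 4 plasma cell genes 1, Xbp1, was higher and 1, Jchain, was lower. Their summed level was 147.5 to 150.8 CPM in WT and 157.6 to 164.2 CPM in KO. Most of it was Xbp1, at a mean of 98.9 CPM in WT and 117.4 CPM in KO. Jchain fell from a mean of 11.4 CPM in WT to 4.21 CPM in KO. Sdc1 (2.91 to 2.27 CPM) and Prdm1 (36.5 to 36.1 CPM) were not called. None of 4 genes of CD8 T and NK cells was called, and their summed levels overlapped. Xist, the RNA that coats the inactive X chromosome, was at 0.187 to 0.424 CPM in the WT libraries and at 123.9 to 144.7 CPM in the KO libraries. The Y-linked genes Ddx3y, Eif2s3y, Kdm5d and Uty were counted in all 6 libraries. Uty was at 17.2 to 17.6 CPM in WT and 11.5 to 12.2 CPM in KO, a log2 fold change of -0.54. Ddx3y and Kdm5d were lower too, at log2 fold changes of -0.38 and -0.28. Eif2s3y did not differ, at a mean of 46.6 CPM in WT and 46.9 CPM in KO (log2 fold change 0.011), with overlapping groups. The labels do not give the sex of the mice, and a difference in sex make-up and the loss of Zfp335 cannot be told apart in any comparison of KO with WT given here. The part of these differences in the histone results was not tested. In bulk samples, fewer cells of a type and less RNA per cell cannot be told apart.

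Taken over the family, the fold changes lay on both sides of 0. The median log2 fold change was -0.038 over the 59 genes, against -0.0042 over all genes tested, with 27 genes above and 32 below 0. Summed CPM was 90.0, 84.7 and 83.5 in WT and 91.9, 91.7 and 85.0 in KO, so the groups overlapped and their means differed by 4.02%. Without Hist1h1c and Hist3h2a, which were left out after their values were seen, the summed CPM differed by -1.78% in KO and the groups overlapped too. The extremes, Hist1h3b at -0.91 (SE 0.45, adjusted p = 0.171 by edgeR) and Hist1h4f at 1.21 (SE 0.52, adjusted p = 0.117), are genes with a mean CPM under 1.

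**Figure D3:**
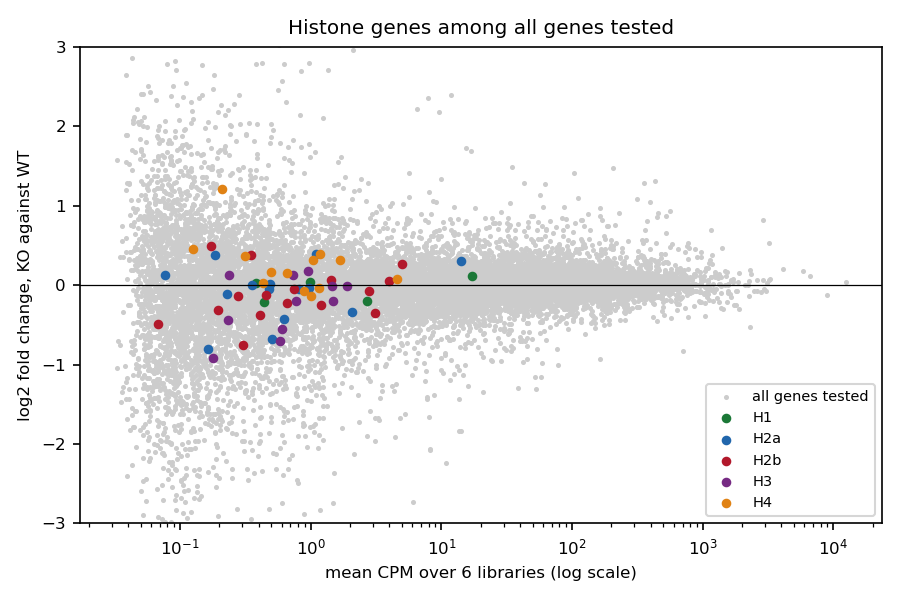
Log2 fold change of KO against WT (vertical axis) against mean CPM over the 6 libraries (horizontal axis, log scale) for all genes tested in grey and for the 59 clustered histone genes in colour by class. The histone genes sit between 0.068 and 17.1 CPM, and 103 genes with a log2 fold change beyond 3 in either direction are outside the plot.

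The tested member with the narrowest error was a linker histone gene, Hist1h1c. H1 binds nucleosomes and the DNA that leaves them, and mouse Tregs can draw on 5 somatic subtypes in the Hist1 cluster, Hist1h1a to Hist1h1e. The summed CPM of the class was 21.1, 21.6 and 20.5 in WT and 22.1, 22.3 and 21.8 in KO, an increase of the mean by 4.65%, and every KO library lay above every WT library. Hist1h1c, which encodes H1.2 and lies at chr13:23738808-23740367 on the plus strand, made up most of it. Of the 5 tested H1 genes, 3 had log2 fold changes above 0 and 2 below. Their median was 0.027, and it fell below 0 whichever single library was left out. Only Hist1h1c had groups that did not overlap. Hist1h1c was at 16.3, 17.0 and 16.0 CPM in WT and at 17.5, 17.9 and 17.9 CPM in KO. All 3 KO libraries were above all 3 WT libraries, and its log2 fold change was 0.11 with an SE of 0.053 and a 95% interval from -0.00086 to 0.23 (adjusted p = 0.147 by edgeR; two-sided exact permutation p = 0.1, the lowest possible with 3 libraries a group). Hist1h1e was at 2.91, 2.96 and 2.69 CPM in WT and at 2.96, 2.59 and 1.98 CPM in KO. These groups overlapped, since KO replicate 1 was as high as the WT libraries, and the log2 fold change was -0.20 (SE 0.14, adjusted p = 0.367 by edgeR). Its exons overlap Hist1h2be and Gm11398 on the same strand and share 32.0% of their 50-base stretches with other genes. Hist1h1d, at 1.16, 0.829 and 0.936 CPM in WT and 0.841, 1.18 and 0.966 CPM in KO, and Hist1h1a and Hist1h1b, at 0.241 to 0.542 CPM in the 6 libraries, had overlapping groups and log2 fold changes of 0.038, -0.21 and 0.027. The H1 genes share little sequence with other genes, with a median of 1.13% of stretches, and Hist1h1e is the exception.

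The H2a class held the gene that changed. Hist3h2a, at chr11:58954685-58956830 on the plus strand, was at 13.8, 13.2 and 10.5 CPM in WT and at 16.2, 15.9 and 14.7 CPM in KO. Every KO library was above every WT library, and WT replicate 3 was the lowest of the 6. The log2 fold change was 0.31 with an SE of 0.085 and a 95% interval from 0.12 to 0.49 (adjusted p = 0.0188 by edgeR). Without KO replicate 1 it was 0.28 with an adjusted p of 0.0788, and without KO replicate 2 it was 0.29 with an adjusted p of 0.0730. The annotated Hist3h2a transcript runs 1643 bases past its stem-loop. It overlaps Trim17, a gene of the tripartite motif family that starts at the same base on the same strand, in 708 of its 2146 exonic bases, and Gm44313 on the other strand. Trim17 itself was at 0.682, 0.378 and 0.557 CPM in WT and at 0.264, 0.815 and 0.602 CPM in KO, with overlapping groups. Whether reads of the shared bases were counted for Hist3h2a, for Trim17 or for neither is not given in the sources used here.

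Its neighbour Hist3h2ba, an H2b gene that ends 5.15 kb upstream on the same strand, at chr11:58948920-58949533, was at 4.05, 4.78 and 4.76 CPM in WT and at 5.36, 5.86 and 5.06 CPM in KO. All KO libraries were again above all WT libraries, but the log2 fold change of 0.27 (SE 0.099, 95% interval 0.054 to 0.48) missed the threshold (adjusted p = 0.0679 by edgeR). Hist3h2ba shares 22.1% of its stretches with other genes, mostly with Hist3h2bb-ps. The pair makes up the Hist3 cluster, whose summed CPM was 17.8, 18.0 and 15.2 in WT and 21.6, 21.8 and 19.7 in KO, a mean 23.6% higher in KO with no overlap. Most of that sum was Hist3h2a, at a mean of 14.0 CPM over the 6 libraries against 4.98 CPM for Hist3h2ba. The sums of the Hist1 and Hist2 clusters, over 54 and 10 genes, differed in mean by 0.223% and -8.74% in KO, with overlapping groups. No test compared the clusters with each other.

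The promoters of the Hist3 pair are shown because in both genes every KO library lay above every WT library. This held for 6 of the 59 tested genes in all, and the opposite order held for 8. Groups without overlap, in either direction, were common in the data, at 38.3% of all 17307 genes tested. The RefSeq sequences (GRCm38.p6, plus strand) run from 250 bases before to 50 bases after the annotated start, and the capitals mark matches on either strand to CCAAT (the CCAAT box), TATAAA (the TATA box) and ATTTGCAT (the octamer bound by OCT1, the product of Pou2f1).
Hist3h2a, chr11:58954435-58954734: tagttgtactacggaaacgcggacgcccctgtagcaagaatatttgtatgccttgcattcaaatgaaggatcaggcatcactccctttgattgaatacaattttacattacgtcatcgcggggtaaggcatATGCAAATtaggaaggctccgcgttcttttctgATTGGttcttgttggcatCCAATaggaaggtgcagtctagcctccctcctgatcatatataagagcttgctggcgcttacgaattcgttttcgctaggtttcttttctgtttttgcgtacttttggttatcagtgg
Hist3h2ba, chr11:58948661-58948960: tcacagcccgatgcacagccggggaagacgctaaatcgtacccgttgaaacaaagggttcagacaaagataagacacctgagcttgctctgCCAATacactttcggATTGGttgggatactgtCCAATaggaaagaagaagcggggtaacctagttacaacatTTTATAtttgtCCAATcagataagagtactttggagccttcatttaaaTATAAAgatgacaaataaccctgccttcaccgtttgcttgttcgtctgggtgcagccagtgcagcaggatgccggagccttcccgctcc
Hist3h2a holds 2 CCAAT matches, 1 octamer and no exact TATAAA. It does read tatataag upstream of its start, a TATA-like run that the search for TATAAA does not count. Hist3h2ba holds 4 CCAAT matches, 2 TATAAA matches (1 on the other strand) and no octamer in this window. A match describes the letters only and shows no binding.

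Across the family, RefSeq promoters could be matched for 62 of the 67 genes. CCAAT was found in every promoter of the 6 H1, 18 H2a, 16 H2b and 10 H3 genes matched, and in 3 of 12 H4 promoters, against 37.4% of all 32851 promoters. TATAAA was found in 35 of the 62, or 56.5%, against 13.6% of all promoters. The octamer was found in 7 of the 18 H2a and 7 of the 16 H2b promoters and in none of the H1, H3 and H4 promoters, against 1.74% of all promoters. Hist1h2be has 2 RefSeq promoters, and the first by position was used, which holds an octamer that the other lacks. Many H2a and H2b genes lie head to head, so that their windows can overlap and hold the same match: 13 pairs of clustered histone genes start within 1000 bases of each other on opposite strands, 12 of them an H2a with an H2b gene. In 12 of the 13 pairs both genes were tested, and both log2 fold changes had the same sign in 6 of these 12.

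Apart from Hist3h2a, the H2a genes were not called in either direction. Hist3h2a included, the class summed to 23.6, 21.1 and 18.5 CPM in WT and to 23.9, 24.3 and 21.9 CPM in KO, with overlapping groups. Hist3h2a held most of this sum, with a mean of 14.0 of 22.2 CPM over the 6 libraries. The median log2 fold change of the class was -0.041, and 6 of 14 tested genes, Hist3h2a among them, were above 0. Hist1h2ao was at 2.77, 1.75 and 2.50 CPM in WT and at 1.63, 1.94 and 1.90 CPM in KO. WT replicate 2 lay within the KO range, and the log2 fold change was -0.34 (SE 0.17, adjusted p = 0.181 by edgeR). Hist2h2ac was at 0.956, 1.09 and 0.758 CPM in WT and at 1.78, 1.18 and 0.821 CPM in KO, a spread in KO wider than the difference between the means. Hist1h2ak, at 0.665, 0.588 and 0.632 CPM in WT and 0.348, 0.410 and 0.410 CPM in KO, had no overlap and a log2 fold change of -0.68 (SE 0.25, adjusted p = 0.0639 by edgeR). Of the 5 classes, H2a shares the most sequence. A median of 73.0% of the 50-base stretches of H2a genes occur in other genes, up to 93.5% for Hist1h2ao among the tested H2a genes. How the authors counted reads that fit several genes is not given in the sources used here, so the values of single H2a genes are uncertain where copies are nearly identical.

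For H2b, the partner of H2a in the nucleosome, the class sums overlapped, at 21.4, 20.5 and 22.0 CPM in WT and 21.1, 22.0 and 19.5 CPM in KO. The median log2 fold change was -0.13, with 5 of 16 tested genes above 0. Hist1h2bc and Hist2h2be, which are known to give polyadenylated transcripts as well, are both among the 12 highest. Hist2h2be, at chr3:96221119-96223738 on the plus strand, was at 3.78, 2.98 and 3.68 CPM in WT and at 2.76, 2.93 and 2.43 CPM in KO. Every KO library was below every WT library, if by little for WT replicate 2. The log2 fold change was -0.35 with an SE of 0.13 and a 95% interval from -0.62 to -0.078, which missed the threshold (adjusted p = 0.0616 by edgeR). None of its 50-base stretches occurs in another gene. Hist1h2bc was at 3.73, 3.97 and 3.96 CPM in WT and at 4.56, 3.76 and 3.83 CPM in KO, with overlapping groups and a log2 fold change of 0.055 (SE 0.11, 95% interval -0.17 to 0.28). The head-to-head partner of Hist2h2be, Hist2h2ac, had a log2 fold change of 0.39 (SE 0.26), and so differed in sign from it.

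**Figure D4:**
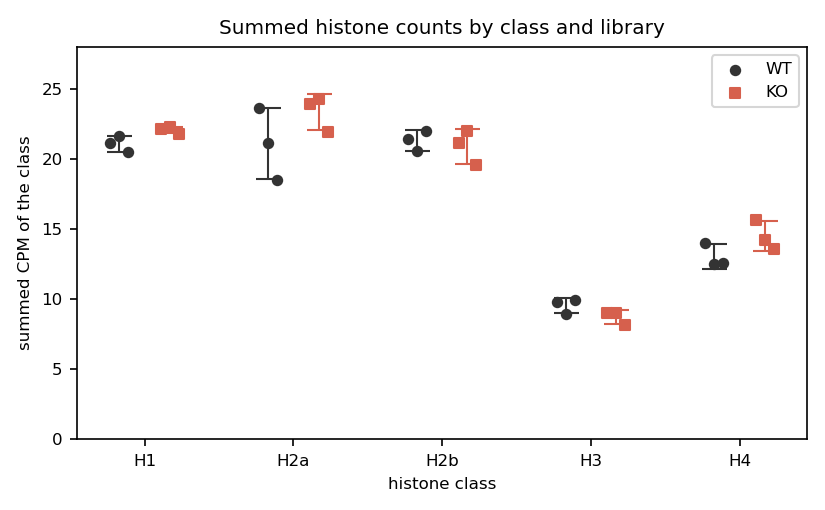
Summed CPM of each histone class (vertical axis) in each library, with WT as circles, KO as squares and bars for the mean ± SD of 3 libraries. With TMM scaling the groups are separate for H1 alone, where WT lies at 20.5 to 21.6 and KO at 21.8 to 22.3 CPM. Among the tested H1 genes, the groups are separate for Hist1h1c alone.

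H3 and H4, which form the tetramer at the core of the nucleosome, differed in sign. The H3 class summed to 9.80, 8.92 and 9.93 CPM in WT and to 9.001, 8.98 and 8.13 CPM in KO, a difference of the means of -8.87%. The H4 class summed to 14.0, 12.5 and 12.6 CPM in WT and to 15.7, 14.2 and 13.6 CPM in KO, a difference of 11.2%. In both classes the groups overlapped by 1 WT library, replicate 2 for H3 and replicate 1 for H4. The median log2 fold change was -0.19 for H3, with 3 of 11 genes above 0, and 0.16 for H4, with 10 of 13 above 0, against 49.2% of all genes tested. The difference between the classes was not tested, and no H3 or H4 gene was called.

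The 3 highest H3 genes were not called. Hist1h3a was at 2.09, 1.85 and 1.81 CPM in WT and at 1.78, 2.24 and 1.68 CPM in KO, and Hist1h3c at 1.49, 1.32 and 1.58 CPM in WT and 1.88, 1.29 and 1.19 CPM in KO. Both log2 fold changes were under 0.01 in size, and their signs turned when single libraries were left out. Hist2h3c1 was at 1.71, 1.45 and 1.58 CPM in WT and 1.42, 1.30 and 1.42 CPM in KO. Every KO library was below every WT library, by little for WT replicate 2, and its log2 fold change was -0.19 (SE 0.15, adjusted p = 0.397 by edgeR). All of its 50-base stretches also occur in other genes, most often in Gm20634, a gene model on the same strand. Hist1h3f, at 0.588, 0.803 and 0.773 CPM in WT and 0.303, 0.559 and 0.447 CPM in KO, had no overlap and a log2 fold change of -0.70 (SE 0.27, adjusted p = 0.0845 by edgeR).

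Among the H4 genes, which encode the same core histone from 13 loci, the highest was Hist1h4i, at 4.64, 3.95 and 4.80 CPM in WT and 4.77, 4.60 and 4.63 CPM in KO. Its groups overlapped, and its log2 fold change was 0.073 (SE 0.097, 95% interval -0.14 to 0.28). Hist1h4m was at 1.48, 1.53 and 1.47 CPM in WT and at 2.21, 1.71 and 1.69 CPM in KO, and Hist1h4n at 1.01, 0.924 and 1.11 CPM in WT and 1.51, 1.26 and 1.22 CPM in KO. In both, every KO library was above every WT library, and KO replicate 1 was the highest. Their log2 fold changes were 0.31 (SE 0.16, adjusted p = 0.176 by edgeR) and 0.40 (SE 0.18, adjusted p = 0.127). These are not independent measurements, since Hist1h4m and Hist1h4n share 89.8% and 85.6% of their 50-base stretches with other genes and each has the other as its closest match. Hist4h4, the single gene on chromosome 6, was at 0.319, 0.499 and 0.461 CPM in WT and 0.477, 0.453 and 0.374 CPM in KO, with overlapping groups.

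Of 15 genes that make and finish histone mRNA, 1 was higher and 4 were lower, where 24.1% of all genes tested were called in either direction, with a median log2 fold change of -0.066. Pou2f1, which encodes the octamer factor OCT1, was higher (log2 fold change 0.20, adjusted p = 0.00561 by edgeR). Lsm10, a subunit specific to the U7 snRNP that guides the cut after the stem-loop, was lower at 12.4, 12.5 and 12.4 CPM in WT and 9.93, 9.76 and 9.48 CPM in KO (log2 fold change -0.35, adjusted p = 0.000822 by edgeR). The cleavage factors Cpsf2 and Cstf2 (-0.12 and -0.17) and Upf1 (-0.13), a helicase that takes part in histone mRNA decay, were lower too. Npat, the coactivator of histone transcription, was at -0.063 (adjusted p = 0.447), and Slbp was at 0.11 (adjusted p = 0.0521), neither of them called by edgeR.

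Of 11 histone variants outside the clusters, 3 were higher and 2 were lower in KO, where 12.0% of all genes tested were higher and 12.1% lower. H3f3b rose by a log2 fold change of 0.47, H2afz by 0.29 and Cenpa, the centromeric H3, by 0.17. H2afx, the H2A variant that is phosphorylated at DNA breaks, was at -0.22 and H1f0, the H1 of resting cells, at -0.31. Of 21 histone chaperones, 2 were higher, Nasp and Hira (0.25 and 0.16), and 2 were lower, Asf1b and Daxx (-0.21 and -0.12), so that 4 of 21 were called against 24.1% of all genes tested. All of these were called at an adjusted p under 0.05 by edgeR.

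Of 26 genes of S phase, when clustered histones are made, 2 were higher and 5 were lower, close to the 24.1% called among all genes tested, with a median log2 fold change of -0.061, and none of Mcm2 to Mcm7 was called. Pcna and Cdt1 were higher (0.17 and 0.36), and Rrm2, Ccne1, Ccna2, E2f2 and Uhrf1 were lower (-0.32, -0.22, -0.45, -0.30 and -0.16). All 5 genes of dividing cells, Mki67, Top2a, Cdk1, Birc5 and Ccnb1, were lower in KO, with log2 fold changes from -0.44 to -0.33, and their summed level was 315.3 to 378.3 CPM in WT and 252.6 to 279.7 CPM in KO. The summed clustered histone CPM overlapped between the same libraries. Whether these differences go together was not tested.

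**Figure D5:**
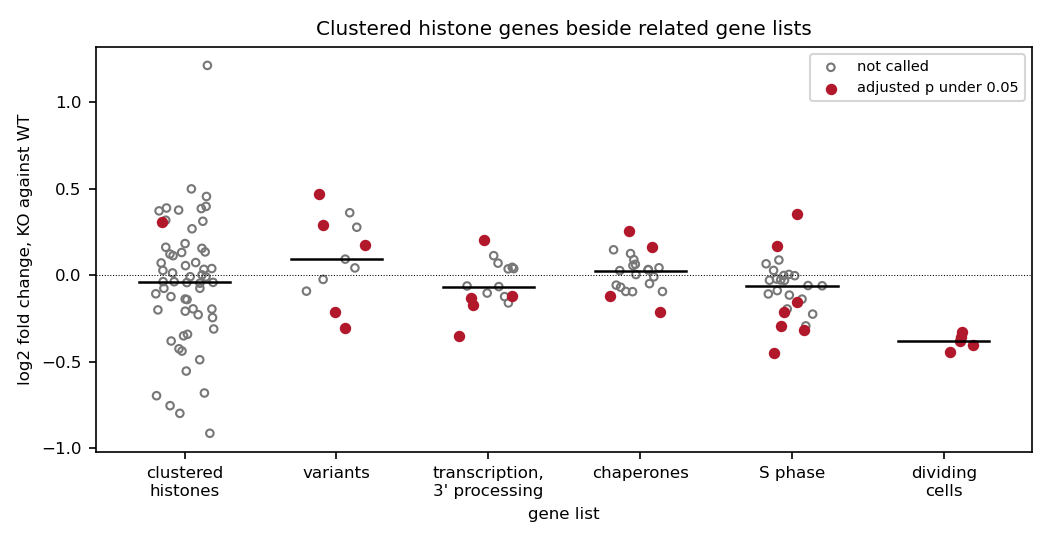
Log2 fold change of KO against WT (vertical axis) for the clustered histone genes and for 5 lists of related genes (horizontal axis), with 1 point a gene, filled where the adjusted p was under 0.05, and a bar at each list's median. The 5 genes of dividing cells all lie between -0.44 and -0.33, whereas the clustered histone genes lie on both sides of 0 around a median of -0.038.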

How the data were processed

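The deposited table holds raw counts by gene symbol, 1 column for each of the 6 libraries and not normalized by the authors. The submitters' processing notes name HISAT2, DESeq2 and mm10. The counting tool, its strand setting, its treatment of reads that fit several genes and the annotation are not given in the sources used here. The members and the gene lists were chosen with earlier results of these data known. Where a symbol was repeated (40 cases), the entry with the highest total was used under it.

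The whole table was fitted in R 4.3.3 with edgeR 4.0.16 (TMM, filterByExpr, quasi-likelihood F-test with robust dispersion, newer method), and p-values were Benjamini-Hochberg adjusted over 17307 genes. A gene was called when its adjusted p was below 0.05. Standard errors were derived from the F statistic, and intervals are at 95%. Class sums and medians were not tested. Exact permutation p-values were computed from log2 CPM (prior count 2). The fit was tested on simulated counts. Alternatives were other scalings and filters, DESeq2 1.42.0, limma-voom (limma 3.58.1), the legacy method of edgeR, the study's cutoffs, the replicate block and leaving out each library.

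Named with full values were the 3 highest members of each class, called members and members set apart by known biology. Hist1h2ak, Hist1h3b, Hist1h3f, Hist1h4f, Trim17, Xist and the Y-linked genes were named after their values were seen.

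Positions, exon lengths and transcripts come from GENCODE vM21 (GRCm38, the build called mm10). A shared stretch is a 50-base run of a gene's transcripts that also occurs, on either strand, in another gene's transcripts. Of the 67 members, 24 overlap another annotated gene, 21 of them on the other strand, where counts made without strand could not tell the partners apart.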

Additional observations from a re-analysis of the deposited data

How the results depend on the processing

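Hist3h2a stayed higher under each of the 17 alternatives, with log2 fold changes from 0.21 to 0.37, and passed the threshold in 14; it missed it without KO replicate 1, without KO replicate 2 and, at 0.31, under the study's fold cutoff. The study's cutoffs thus called 0 members higher and 2 lower, where 6.95% of all genes tested were called in either direction. Scaling by library size only, which shifts the median of all genes to -0.035, called 1 member lower, and so did a minimum of 1 CPM in at least 3 libraries, in each case Hist2h2be (log2 fold changes -0.38 and -0.36). Over all genes, the former called 4197 of 17307 and the latter 4000 of 12110. Leaving out 1 library at a time called 0 to 1 members higher and 0 to 2 lower: Hist1h3f without WT replicate 1, and Hist1h2ao and Hist2h2be without WT replicate 2. Over all genes, these fits called from 2740 of 17762 (without WT replicate 2) to 4996 of 17723 (without WT replicate 1). With library size only, the log2 ratio of the H1 sum was 0.035, against 0.066. The H1 sums of the groups then overlapped, with WT replicate 2 above KO replicate 3. With the minimum of 1 CPM, which left 20 members, the medians were 0.30 for H2a, -0.016 for H2b and -0.015 for H3. With 1 library left out the medians ranged from -0.12 to 0.023 for all members, from -0.11 to -0.0024 for H1, from -0.17 to 0.096 for H2a, from -0.27 to -0.051 for H2b and from -0.22 to -0.066 for H3. The H1 median was 0.027 with all 6 libraries, so its sign turned in each of these fits. The H4 median stayed above 0 in every alternative, between 0.12 and 0.26, and the H2b and H3 medians stayed below 0 in every alternative.

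The signs that turned belong to values near 0. With library size only, Hist1h1b was at -0.0037, and with the replicate block Hist1h3a was at 3.27e-06 and Hist1h3c at 0.0035. With 1 library left out, the ranges that crossed 0 were -0.18 to 0.32 for Hist1h1b, -0.11 to 0.20 for Hist1h1d, -0.15 to 0.075 for Hist1h3a, -0.22 to 0.11 for Hist1h3c, -0.16 to 0.19 for Hist4h4, -0.015 to 0.12 for Hist1h4i and -0.032 to 0.11 for Hist1h2bc. None of these was called. The causes were not tested.

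Replicate numbers were shared between the groups, but the correlations of same-numbered libraries were 0.031, 0.0078 and 0.033, and no source says that a number marks a pair. With the replicate number as a block, 4227 genes were called, against 4170, and again 1 member was higher and 0 were lower. KO replicate 1 was the best match of WT replicates 1 and 2, and KO replicate 3 that of WT replicate 3. Counts limit most single members: 39 of the 59 tested had under 1 CPM.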
